A study of Mus musculus with 18 samples.

Results

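The comparison described here asks whether mouse embryonic stem (ES) cells without Cyp26a1 changed differently from wild-type cells over 72 h of retinoic acid (RA). For every gene the change between control and RA at 72 h was taken in Cyp26a1-/- (KO) cells and in wild-type (WT) cells, and the WT change was subtracted from the KO change. A negative difference of responses means that the transcript rose less, or fell more, in KO cells. Genes were called at an adjusted p of at most 0.05. Of 11388 genes tested, 39 (0.342%) were called, 36 of them lower (0.316%) and 3 higher (0.0263%) in the KO response. The signal came from 10 of the 18 arrays of the series, and the spread between replicates was estimated over 16.

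The cells were of the AB1 ES line, either with the labelled CYP26A1-/- genotype or wild type, and 1 Affymetrix array was hybridised per sample. The KO groups were 2 samples given 100 nM RA with leukemia inhibitory factor (LIF) for 72 h and 3 control samples kept with LIF for 8 h. The WT groups were 2 samples under the same RA and LIF for 72 h and 3 control samples with LIF for 8 h. The labels give no control at 72 h, so RA and time in culture cannot be told apart in either response. They name no clone for the KO cells, so a difference between genotypes cannot be told apart from a difference between lines. Treatments were repeated, but the labels do not say whether each came from its own culture. The p-values therefore reflect only how far these samples differ within a group, which could be technical.

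RA, made from vitamin A, binds nuclear receptors that sit on DNA with retinoid X receptors and switch on target genes such as Hox genes and Cyp26a1 itself. CYP26A1 is a cytochrome P450 that oxidises RA and so clears it from the cell. RA drives cultured ES cells out of self-renewal, with extraembryonic endoderm, neural or smooth-muscle-like cells among the products, depending on the culture. LIF works the other way and keeps mouse ES cells undifferentiated.

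Signal is given in array units, on a scale where the trimmed mean of every array is 500. For the tests a signal under 50 units counted as 50, a floor that stands for background, and between 41.6% and 48.3% of an array's probe sets were that dim. Signals printed per array are as measured, without the floor. The median signal of an array was 54.4 to 75.6 units. All 6 ES cell markers were high on all 10 arrays, with Pou5f1 at 10090.1 to 15815 units and Nanog at 5205 to 10678 units. Summed over the 6 they read 92242 to 96118 units in KO cells after RA and 97299.9 to 102700.0 units in KO controls, against 74155 to 80609.8 units in WT cells after RA and 84829 to 93808 units in WT controls. Of the 7 markers of fibroblast feeder cells, Thy1 made up most of the sum in controls (329 to 717 units) and read 78.5 to 143 units after RA in both genotypes. The other 6, collagens among them, summed to 118 and 151 units in KO cells after RA and 51.7 to 204 units in KO controls. In WT cells they summed to 254 units in replicate 1 and 1286 units in replicate 2 after RA, and to 127 to 185 units in controls. Both WT arrays after RA were thus above all others in this sum, replicate 2 by far. In WT replicate 1 this did not hold for each marker. Col1a2 read 91.3 units there and 97.7 units in KO replicate 2 after RA, and Lum and Postn each read 2.46 units there. With Thy1 the sums were 261 to 262 units in KO cells after RA and 557 to 663 units in KO controls, against 354 and 1365 units in WT cells after RA and 514 to 845 units in WT controls. The LIF target Socs3 read 215 units in KO and 367 units in WT control replicate 1, against 2628 to 6001 units on the other arrays labelled with LIF. On the arrays labelled without LIF it read 4551 units in KO and 3800 units in WT cells, so Socs3 goes against the LIF labels of these 4 controls. The labels were kept, and counts are also given without these controls and with their labels exchanged.

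**Figure D1:**
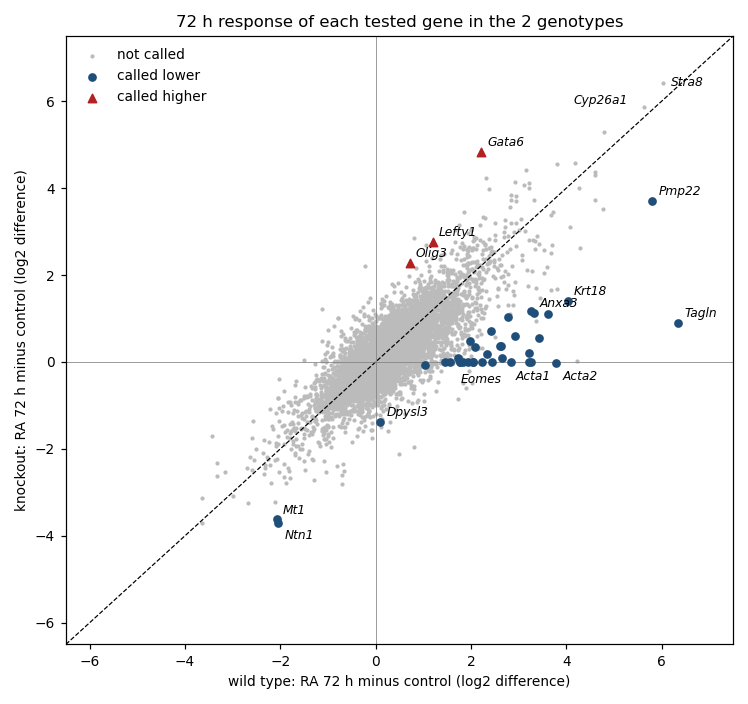
Each point is 1 of 11388 genes, with the log2 change between control and RA at 72 h in KO cells on the vertical axis and in WT cells on the horizontal axis. Genes called lower in the KO response (36, filled circles) mostly lie near 0 on the KO axis and above 1 on the WT axis, the 3 called higher (triangles) lie above the dashed line of equal responses, and Cyp26a1 and Stra8 lie near that line.

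Most of the genes called lower rose in WT cells and did not pass the test in KO cells. Of the 36, 33 rose in WT over 72 h (16.1% of all genes tested did), 2 fell in WT (8.64%) and 1 was not called there. In KO cells 8 of the 36 rose (14.8% of all genes), 3 fell (8.26%) and 25 were not called. At 72 h, 34 were lower in KO than in WT (2.68% of all genes, with 1.39% higher and 4.07% called either way), and both KO arrays read below both WT arrays for all 36. In controls 2 of them were higher in KO (1.83%), 1 was lower (2.81%) and 33 were not called, where 4.64% of all genes were called. These counts share arrays with the difference of responses and are no separate evidence for it. In 22 of the 39 at least 1 of the 4 groups lay wholly at the floor, and in 9 every group but WT at 72 h did. A further limit is that 21 of the 36 reached 100 units on fewer than 2 arrays outside WT at 72 h, so that they passed the filter on dim genes through the group in which they were high. Differences that involve groups at the floor are computed from floored values and are no bounds.

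The size of the list depended on single arrays. Leaving out KO replicate 1 or 2 at 72 h gave 14 or 1 called genes, and leaving out WT replicate 1 or 2 gave 8 or 1. Tagln was called in each of these 4 fits, in which the group left with 1 array was assumed to vary like the others. Leaving out a control array gave 11 to 28 genes, and leaving out replicate 1 of both controls gave 11, of which 9 are among the 39. With the LIF labels exchanged 45 genes were called, 35 of them among the 39, and Gata6, Cstdc1, Dpysl3 and Pcgf5 were not. None of the called differences changed sign in the alternatives in which it could be fitted, 23 to 26 a gene. For the 9 genes with every group but WT at 72 h at the floor, the sign could not change under the same floor and scaling. The alternatives also reuse the 72 h arrays, so an unchanged sign is no separate support. They include the reported fit with a log2 difference of at least 1 required. Every called gene already met that, so this alternative could not lose a call. Without adjustment 645 genes had a p under 0.05, and 400 of these were lower.

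Of the 29 gene lists examined, smooth muscle and actin cytoskeleton held the most called genes. Of its 20 tested genes, 6 were called lower and 0 higher, 17 lay below 0, and the median difference of responses was -0.88. Over all genes tested 0.316% were called lower, the median was 0.0059, and 49.1% lay below 0. Lists and members were chosen with earlier results of these data known, so the rank of this list is no test. The 6 were Tagln, Acta2, Acta1, Myl9, Tpm1 and Cnn1. In bulk RNA fewer cells of a type and less RNA per cell cannot be told apart.

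Tagln encodes transgelin (SM22), an actin-binding protein of smooth muscle. It read 67.5 and 128 units in KO cells after 72 h of RA and 12.2, 4.90 and 4.67 units in KO controls, against 3654 and 4552 units in WT cells after 72 h and 38.9, 46.2 and 7.45 units in WT controls. All control arrays lay at the floor, WT cells after RA were far above every other array, and KO cells after RA lay between. The KO rise was at least 1.86-fold and the WT rise at least 81.6-fold, and at 72 h Tagln was 43.9-fold lower in KO cells. Its difference of responses was -5.46 ± 0.34 (log2 ± standard error, limma adjusted p = 9.38e-07), the largest of all genes tested in size, and it was called in 26 of 26 alternatives.

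Acta2, the smooth-muscle alpha-actin, read 158 and 152 units in KO cells after 72 h of RA and 133, 171 and 171 units in KO controls, against 1859 and 3757 units in WT cells after 72 h and 186, 179 and 208 units in WT controls. KO cells after RA lay within the range of KO controls and below WT controls, while both WT arrays after RA were far above all others and unlike each other. The KO response was -0.02 ± 0.46 and the WT response 3.79 ± 0.46, with a difference of -3.81 ± 0.65 (adjusted p = 0.0209). Without WT replicate 2 it was -3.30 with adjusted p = 0.324, and it was also not called without KO replicate 1 or 2. Acta1 encodes skeletal alpha-actin, nearly the same protein, and whether the probes share signal between these transcripts was not tested. Acta1 read 9.67 and 17.3 units in KO cells after 72 h of RA and 9.02, 15 and 23.6 units in KO controls, against 581 and 504 units in WT cells after 72 h and 9.50, 30.6 and 71.7 units in WT controls. Every KO array lay at the floor, and Acta1 was at least 10.8-fold lower in KO at 72 h (difference of responses -3.26 ± 0.44, adjusted p = 0.00885, called in 21 of 25 alternatives).

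Myl9, the regulatory light chain of smooth-muscle and nonmuscle myosin, read 57.3 and 65.2 units in KO cells after 72 h of RA and 7.86, 59.7 and 32 units in KO controls, against 549.6 and 620.3 units in WT cells after 72 h and 92.6, 54.2 and 22.4 units in WT controls. KO cells after RA overlapped both sets of controls, and the WT arrays after RA were apart from all others (-3.01 ± 0.46, adjusted p = 0.012). Cnn1 encodes calponin, which binds actin and restrains myosin in smooth muscle. It read 193 and 221 units in WT cells after RA and was at the floor on each of the other 8 arrays, which makes KO at least 4.14-fold lower at 72 h (-2.05 ± 0.29, adjusted p = 0.00885). Tpm1, a tropomyosin that lines actin filaments, was well above background everywhere. It read 1021 and 987 units in KO cells after 72 h of RA and 956, 639.5 and 775 units in KO controls, against 5640.4 and 6896 units in WT cells after 72 h and 1356, 982 and 771 units in WT controls. The KO arrays after RA lay just above KO controls and within the range of WT controls, and the KO response of 0.36 ± 0.26 was not called, against a WT rise of 2.63 ± 0.26 (difference -2.26 ± 0.37, adjusted p = 0.018).

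The other 14 genes of that list were not called. Cnn2, another calponin, had a difference of -1.57 ± 0.38 (adjusted p = 0.136), and vinculin (Vcl), an adaptor of focal adhesions, one of -1.02 ± 0.36 (adjusted p = 0.539). The cytoplasmic actin regulators Actn4 (0.17 ± 0.21) and Cnn3 (0.08 ± 0.13) lay near 0, and desmin, the intermediate filament protein of muscle, had 0.33 ± 0.64 (adjusted p = 1). Tagln, Acta1, Myl9 and Cnn1 passed the filter on dim genes through the WT arrays after RA, and Acta2 and Tpm1 did not need them. Under the alternatives the list held 1 to 8 called genes, all lower, and its median ran from -1.0 to -0.77. Fibroblasts also express several of these genes. Col1a1, a fibroblast collagen, read 76.8 units in WT replicate 1 and 302 units in WT replicate 2 after RA, against at most 37.4 units in WT controls. The part of the feeder markers of the WT arrays after RA in these results was not tested.

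**Figure D2:**
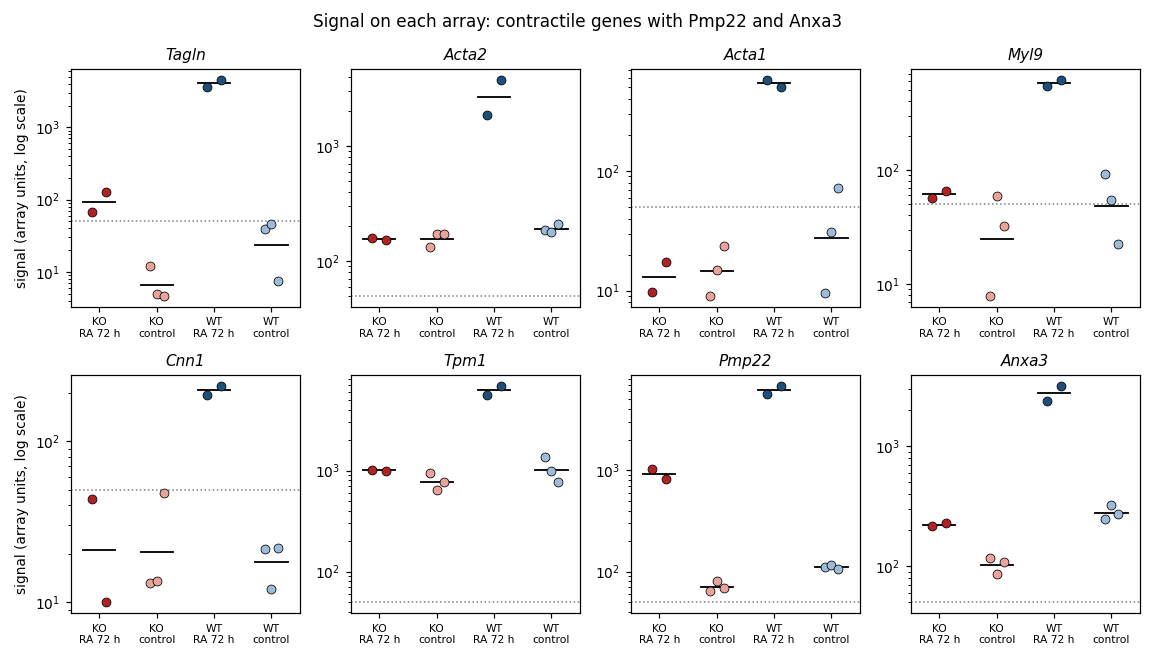
Signal on each array (array units, log scale) of 6 contractile genes with Pmp22 and Anxa3, in KO cells after RA, KO controls, WT cells after RA and WT controls. Points are arrays, bars are geometric means, and the dotted line is the floor of 50 units. For each gene both WT arrays after RA lie above all other arrays, and for Tagln and Pmp22 the KO arrays after RA lie above the controls.

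Serum response factor, the transcription factor best known for smooth-muscle genes, binds the CArG box, in which CC and GG enclose 6 bases that are each A or T. The promoters of the called contractile genes that hold those letters are shown for this reason, and the motif was chosen after the values were seen. RefSeq promoter windows (GRCm38.p6, 250 bases before to 50 bases after a start) were matched by symbol for 28 of the 36 genes called lower. Of the 6 called contractile genes 5 had a window. Tagln had none, so its promoter was not searched. Acta1 held a CArG box 73 to 64 bases before its start, and Myl9 held one 161 to 152 bases before its start. The bases before each start are printed 5′ to 3′ on the strand of the gene, with the CArG box in capitals, for Acta1 at chr8:123894776-123895025 (minus strand) and for Myl9 at chr2:156775214-156775463 (plus strand).
Acta1: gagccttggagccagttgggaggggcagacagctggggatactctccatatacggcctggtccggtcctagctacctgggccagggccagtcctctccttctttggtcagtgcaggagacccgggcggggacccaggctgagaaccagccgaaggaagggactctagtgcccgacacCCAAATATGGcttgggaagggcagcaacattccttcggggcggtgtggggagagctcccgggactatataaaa
Myl9: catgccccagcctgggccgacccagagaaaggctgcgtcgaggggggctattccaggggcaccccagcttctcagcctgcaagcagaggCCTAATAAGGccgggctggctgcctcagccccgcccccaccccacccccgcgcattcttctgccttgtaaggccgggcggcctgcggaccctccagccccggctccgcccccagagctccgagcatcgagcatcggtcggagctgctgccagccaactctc

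Those were the 2 of 28 genes called lower (7.14%) with the motif, which reads the same on both strands. It was found in 142 of 9273 tested genes with a window (1.53%) and in 488 of all 27025 genes (1.81%). In the smooth-muscle and actin list 5 of 20 genes with a window (25%) held it, which were Acta1, Actc1, Cnn2, Myl9 and Vcl. Of these, Cnn2 and Vcl were not called and Actc1, the cardiac alpha-actin, was too dim to test. An RA receptor element, AGGTCA repeated in the same direction with any 5 bases between the copies and searched on both strands, was in 0 of the 28 windows and in 3 of all 27025 genes. AGATAA, a sequence bound by GATA factors, searched on both strands, was in 5 of 28 genes called lower (Cd44, Cstdc1, Edn1, H2-Eb1 and Prss23) and in 7.27% of the tested genes. A match describes letters in a window and shows no binding.

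Other genes called lower rose in both genotypes, and less in KO. Pmp22, a myelin membrane protein also known as growth arrest-specific 3, read 1034 and 817 units in KO cells after 72 h of RA and 64, 80.4 and 69.1 units in KO controls, against 5612 and 6810.0 units in WT cells after 72 h and 111, 115 and 105 units in WT controls. Both genotypes rose clear of their controls, by 13-fold in KO cells and 56-fold in WT cells, and the arrays of the genotypes did not overlap at 72 h. The difference of responses was -2.11 ± 0.34 (adjusted p = 0.018, called in 21 of 26 alternatives). Pmp22 was the only called gene among 19 cell cycle inhibitors and p53 targets (median -0.51). After 8 h of RA it read 107, 150.2 and 171 units in KO cells, against 194, 254 and 330.2 units in WT cells.

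Anxa3 encodes a calcium-dependent phospholipid-binding annexin and was chosen for mention after its values were seen. It read 214 and 231 units in KO cells after 72 h of RA and 116, 86.2 and 108 units in KO controls, against 2411 and 3214 units in WT cells after 72 h and 247, 323 and 269.9 units in WT controls. It was lower in KO in controls already (-1.44 ± 0.21, adjusted p = 0.00172) and more so at 72 h (-3.65 ± 0.26, adjusted p = 2.00e-06). The KO rise of 1.12 ± 0.24 and the WT rise of 3.32 ± 0.24 differed by -2.20 ± 0.33 (adjusted p = 0.012).

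Keratins of simple epithelia followed. Krt18, a type I keratin that pairs with Krt8, read 977 and 923 units in KO cells after 72 h of RA and 418, 279 and 392 units in KO controls, against 5364 and 6210.2 units in WT cells after 72 h and 277, 586 and 273 units in WT controls. Both responses were rises, 2.66-fold in KO cells and 16.3-fold in WT cells, with a difference of -2.62 ± 0.51 (adjusted p = 0.0421, called in 9 of 26 alternatives). Krt7, a type II keratin of ducts and trophectoderm, read 87.6 and 49.8 units in KO cells after RA, against 229 and 196 units in WT cells after RA, and at most 57.6 units on every control array (-1.75 ± 0.35, adjusted p = 0.0448). Krt7 was called in 8 of 23 alternatives. It passed the filter on dim genes through the WT arrays after RA, without which fewer genes of simple epithelium could be tested. Of 16 tested genes of simple epithelium, Krt18 and Krt7 were called lower, 0 were called higher, 14 lay below 0 and the median was -1.04. Krt8 (-1.46 ± 0.43, adjusted p = 0.305), Krt19 (-2.18 ± 0.64, adjusted p = 0.304) and the tight-junction claudin Cldn6 (-2.60 ± 0.65, adjusted p = 0.163) were not called.

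Several cell-surface and secreted factors were called lower. Nrp1, a coreceptor for VEGF and semaphorins, read 119 and 42.2 units in KO cells after 72 h of RA and 32.2, 57.3 and 15.3 units in KO controls, against 475 and 707 units in WT cells after 72 h and 36.3, 52 and 60.4 units in WT controls. The WT arrays after RA were apart from the rest, and 1 of the KO arrays after RA lay at the floor (-2.87 ± 0.48, adjusted p = 0.0203). Wls, the carrier that brings Wnt proteins to the cell surface, read 177 and 127 units in KO cells after RA, against 771 and 902 units in WT cells after RA, and rose in both genotypes (2.14-fold in KO, 12.2-fold in WT, difference -2.51 ± 0.45, adjusted p = 0.0253). Edn1 encodes the vasoconstrictor endothelin 1. It read 56.9 and 11.4 units in KO cells after RA and 398 and 302 units in WT cells after RA (-2.57 ± 0.48, adjusted p = 0.0334). At 8 h of RA it read 71.8, 71.8 and 9.59 units in KO cells, against 74.7, 115 and 205 units in WT cells. Of 26 alternatives, Wls was called in 12 and Edn1 in 9.

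Dlk1, an imprinted membrane protein with EGF repeats that holds back adipocyte differentiation, read 142 and 106 units in KO cells after RA and 802 and 597 units in WT cells after RA (-2.08 ± 0.36, adjusted p = 0.0209). It rose in both genotypes, 2.25-fold in KO and 9.51-fold in WT, and was the only called gene of 16 imprinted genes (median -0.24). Gpc3, an X-linked glypican that binds hedgehog proteins at the surface, read 125 and 231 units in KO cells after 72 h of RA and 97.5, 116 and 128 units in KO controls, against 478 and 982 units in WT cells after 72 h and 104, 96.2 and 74.7 units in WT controls. Both WT arrays after RA were above all others, WT replicate 2 the highest, and the difference was -2.33 ± 0.44 (adjusted p = 0.0334). Bgn, biglycan, an X-linked matrix proteoglycan, read 103 and 103 units in KO cells after RA and 355 and 408 units in WT cells after RA. It rose in both genotypes and its difference was -1.73 ± 0.31 (adjusted p = 0.0251), the only call among 10 genes of mesenchyme and extracellular matrix. Of 26 alternatives, Dlk1 was called in 13, Gpc3 in 11 and Bgn in 10.

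In 3 genes called lower the replicates of WT at 72 h lay furthest apart. Cyp1b1, a cytochrome P450 that oxidises steroids and can form RA from retinol, read 28.3 and 36.1 units in KO cells after RA, against 205 and 1038 units in WT cells after RA. Prss23, a serine protease, read 38.4 and 9.46 units in KO and 197 and 649 units in WT cells, and Irs1, the insulin receptor substrate, 49.7 and 24.1 units in KO and 156 and 377 units in WT cells. All KO arrays of these genes lay at the floor, and WT replicate 2, the array highest in feeder markers, was the higher of its pair. Differences of responses were -3.21 ± 0.62 for Cyp1b1 (adjusted p = 0.0355), -2.84 ± 0.49 for Prss23 (adjusted p = 0.0213) and -2.23 ± 0.42 for Irs1 (adjusted p = 0.033). Cyp1b1 was called in 6 of 24 alternatives, Prss23 in 10 of 23 and Irs1 in 7 of 23. What the feeder markers contribute to them was not tested.

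Regulators were also among them. Ets1, a transcription factor of endothelial, lymphoid and invasive cells, read 78.1 and 53.7 units in KO cells after 72 h of RA and 7.35, 14.3 and 21 units in KO controls, against 258 and 360.0 units in WT cells after 72 h and 3.68, 10.1 and 5.32 units in WT controls. Both sets of controls lay at the floor, and KO was 4.70-fold lower at 72 h (-2.23 ± 0.36, adjusted p = 0.018, called in 17 of 24 alternatives). Rhox6, an X-linked homeobox gene of reproductive tissue and placenta, read 30.5 and 21 units in KO cells after RA, against 215 and 444 units in WT cells after RA (-2.44 ± 0.44, adjusted p = 0.0266). Rhox6 was called in 9 of 24 alternatives.

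A further 10 genes, outside the rule for naming and given because they complete the list, were under 100 units on every array but those of WT at 72 h, where they read 131 to 278 units. They include the interferon-induced GTPases Gbp2 and Gbp2b, close relatives whose probes may share signal, which was not tested. Gbp2 read 4.95 and 25 units in KO cells after RA, against 177 and 209 units in WT cells after RA, and Gbp2b read 20.7 and 39.2 units in KO, against 148 and 198 units in WT cells. Cd44, the hyaluronan receptor, read 37.7 and 33.1 units in KO cells after RA, against 178 and 181 units in WT cells after RA (-1.84 ± 0.28, adjusted p = 0.0123). Pdzrn3, a ubiquitin ligase, read 64.6 and 34.2 units in KO and 226 and 278 units in WT cells (-2.14 ± 0.30, adjusted p = 0.00885). The others had differences of -1.94 ± 0.29 (Gbp2), -1.77 ± 0.30 (Gbp2b), -1.76 ± 0.29 (Zfp503, a zinc finger repressor), -1.70 ± 0.29 (Cstdc1, a cystatin-domain gene) and -1.64 ± 0.29 (Tmprss2, a membrane serine protease). P3h2, which hydroxylates collagen prolines, had -1.56 ± 0.28, the class II antigen chain H2-Eb1 -1.50 ± 0.29 and the endosomal Schwann cell gene Sh3tc2 -1.46 ± 0.29. The adjusted p of the 10 genes lay between 0.00885 and 0.0423, and all 10 passed the filter on dim genes through WT cells after RA. Their calls in the alternatives ran from 7 of 23 (P3h2, H2-Eb1 and Sh3tc2) to 20 of 24 (Pdzrn3).

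A different pattern was a deeper fall in KO cells, also singled out after the values were seen. Ntn1, the axon guidance cue netrin 1, read 192 and 159 units in KO cells after 72 h of RA and 2039, 2198 and 2622 units in KO controls, against 528 and 462 units in WT cells after 72 h and 1843, 1975 and 2338 units in WT controls. The controls of the genotypes overlapped, both fell with RA, and the KO arrays at 72 h lay below the WT arrays. Its KO response was -3.70 ± 0.17 and its WT response -2.05 ± 0.17, a difference of -1.65 ± 0.23 (adjusted p = 0.00885, called in 23 of 26 alternatives). A second probe set of Ntn1 gave 0.08 with an unadjusted p of 0.932 and is the only tested probe set of a called gene with the opposite sign.

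Mt1, the metal-binding metallothionein 1, read 1436 and 1218 units in KO cells after 72 h of RA and 19416, 12486 and 17199 units in KO controls, against 2741 and 2654 units in WT cells after 72 h and 11647, 9489 and 13328 units in WT controls. KO cells after RA were the lowest group, although KO controls were not below WT controls, and the difference was -1.53 ± 0.29 (adjusted p = 0.0334). A second probe set of Mt1 gave -0.07 with an unadjusted p of 0.889. Dpysl3, a cytosolic protein of growing neurites, fell in KO cells alone by the test: it read 271 and 216 units in KO cells after 72 h of RA and 627, 678 and 589.6 units in KO controls, against 440.3 and 516 units in WT cells after 72 h and 512, 449 and 389 units in WT controls. Its KO response was -1.38 ± 0.19 (adjusted p = 0.000102), its WT response 0.09 ± 0.19 (adjusted p = 0.771) and their difference -1.47 ± 0.27 (adjusted p = 0.0271). Mt1 was called in 8 of 25 alternatives and Dpysl3 in 9 of 26.

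For Pcgf5 and Eomes KO controls were higher than WT controls. Pcgf5, a subunit of Polycomb complex 1, read 886 and 727 units in KO cells after 72 h of RA and 879.9, 777 and 882 units in KO controls, against 914 and 914 units in WT cells after 72 h and 451, 478 and 419 units in WT controls. It was higher in KO controls (0.91 ± 0.13, adjusted p = 0.00167), and KO at 72 h did not differ from WT by the test (-0.19 ± 0.16, adjusted p = 0.663). The KO response was -0.07 ± 0.15 and the WT rise 1.03 ± 0.15, with a difference of -1.10 ± 0.21 (adjusted p = 0.0352). Pcgf5 was called in 6 of 25 alternatives. Eomes, a T-box factor of trophectoderm, endoderm and mesoderm, read 228 and 237 units in KO cells after 72 h of RA and 331, 197 and 189 units in KO controls, against 551 and 431 units in WT cells after 72 h and 102, 123 and 131 units in WT controls. KO values lay between the WT groups at both ends, and the difference of -2.04 ± 0.41 (adjusted p = 0.0497) was called in 6 of 26 alternatives.

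Eomes and Krt7 are also the 2 genes called among 9 tested trophectoderm genes, all 9 of which lay below 0 (median -0.86). Krt7 passed the filter on dim genes through the WT arrays after RA. Fewer than 9 genes of the list passed it without either of these arrays. The count below 0 therefore depends in part on the filter. The 4 trophectoderm markers, which include both, summed to 343 to 344 units in KO cells after RA and 235 to 413 units in KO controls. In WT cells they summed to 746 to 870 units after RA and 149 to 223 units in controls. Elf5, a defining factor of trophoblast stem cells, was at the floor on all 10 arrays, and Cdx2 read at most 108 units, in WT replicate 2 after RA.

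Only 3 genes were called higher in the KO response, and 2 of them started lower in KO controls. Gata6, a zinc finger factor that specifies primitive endoderm, read 1636 and 1472 units in KO cells after 72 h of RA and 14.4, 63.9 and 41.2 units in KO controls, against 1297 and 932 units in WT cells after 72 h and 165, 220.2 and 369 units in WT controls. KO controls lay below every WT control, and after RA the KO arrays were the highest, but KO against WT at 72 h was not called (0.50 ± 0.41, adjusted p = 0.638). The KO response of 4.84 ± 0.37 and the WT response of 2.21 ± 0.37 differed by 2.63 ± 0.53 (adjusted p = 0.0473, called in 6 of 26 alternatives), with 2 of 3 KO controls at the floor. A second probe set of Gata6 gave 1.13 with an unadjusted p of 0.169. Lefty1, a secreted antagonist of Nodal, read 3408 and 3060.4 units in KO cells after 72 h of RA and 625, 344 and 506 units in KO controls, against 2727 and 2826 units in WT cells after 72 h and 1058, 1354 and 1241 units in WT controls. It too was lower in KO controls (-1.34 ± 0.19, adjusted p = 0.0015) and not called at 72 h (0.22 ± 0.23, adjusted p = 0.739), with a difference of responses of 1.56 ± 0.30 (adjusted p = 0.0341). Lefty1 was called in 9 of 26 alternatives.

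Olig3 was the exception, a basic helix-loop-helix factor of the dorsal neural tube. It read 263 and 248 units in KO cells after 72 h of RA and 2.80, 59.7 and 13.2 units in KO controls, against 80.7 and 83 units in WT cells after 72 h and 46.9, 10.4 and 8.62 units in WT controls. Both genotypes rose, and KO cells after RA were above all other arrays (1.55 ± 0.29, adjusted p = 0.0299, called in 9 of 24 alternatives). At 72 h it was higher in KO by 1.64 ± 0.22 (adjusted p = 0.000773). None of the 10 tested genes of the neural list, which does not hold Olig3, was called, and their median was 0.19.

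**Figure D3:**
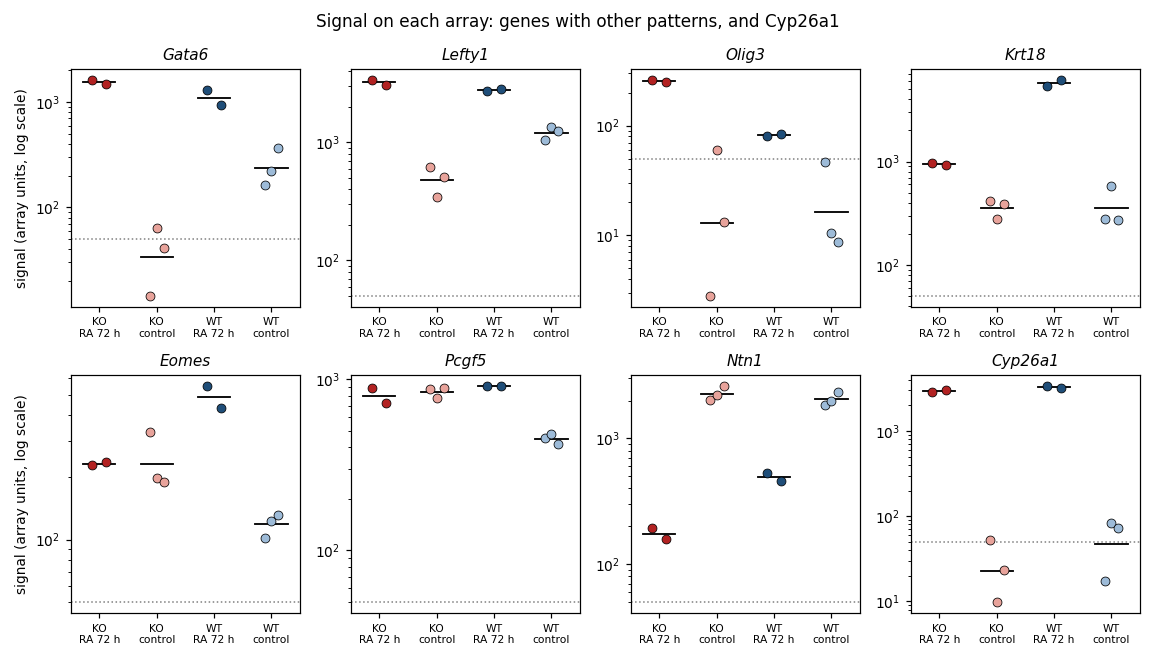
Signal on each array (array units, log scale) of Gata6, Lefty1, Olig3, Krt18, Eomes, Pcgf5, Ntn1 and Cyp26a1 in KO cells after RA, KO controls, WT cells after RA and WT controls. Points are arrays, bars are geometric means and the dotted line is the floor of 50 units. Gata6 and Lefty1 are lower in KO controls than in WT controls, Olig3 is highest in KO cells after RA, and Cyp26a1 is at 2873 to 3075 units in KO and 3211 to 3402 units in WT cells after RA.

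Few other endoderm genes passed the threshold. Of 11 tested endoderm transcription factors, Gata6 was called higher, Eomes lower, 2 lay below 0 and the median was 0.49. Gata4 (1.03 ± 0.53, adjusted p = 0.983) and Sox17 (0.89 ± 0.90, adjusted p = 1), both factors of primitive endoderm, were not called. None of 12 extraembryonic endoderm products was called (median 0.26), among them the endocytic adaptor Dab2 (1.93 ± 0.94, adjusted p = 0.932) and the receptor cubilin, Cubn (1.59 ± 0.82, adjusted p = 0.986). Other tested probe sets of Dab2 gave -0.97, -0.49 and 0.93, so its sign depended on the probe set, and another of Cubn gave 0.45. The 8 endoderm markers summed to 8641 to 9326 units in KO cells after RA and 999 to 1388 units in KO controls. In WT cells they summed to 9408 to 13416 units after RA and 2033 to 4712 units in controls. Of 15 Nodal and activin genes Lefty1 alone was called (median 0.05), and Lefty2, its paralogue, had 1.36 ± 0.48 (adjusted p = 0.552).

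**Figure D4:**
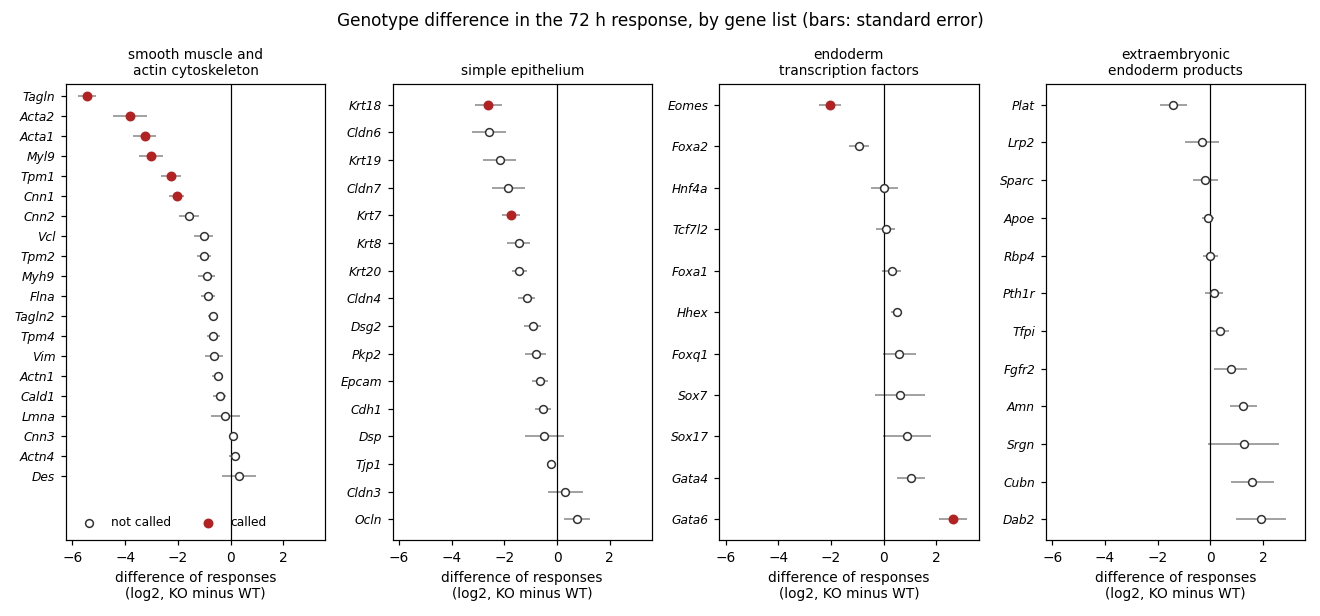
Difference of the 72 h responses (log2, KO minus WT, with standard error) for every tested gene of 4 lists. Filled points were called: 6 of 20 smooth-muscle and actin genes and 2 of 16 simple-epithelium genes, all lower, Eomes and Gata6 in opposite directions among 11 endoderm factors, and none of 12 extraembryonic endoderm products.

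None of the genes listed for RA induction, metabolism or reception was called, which depended on the floor. Cyp26a1 itself read 2873 and 3075 units in KO cells after 72 h of RA and 52.6, 9.81 and 23.3 units in KO controls, against 3402 and 3211 units in WT cells after 72 h and 17.5, 84.2 and 71.9 units in WT controls. Both genotypes rose, and the difference of responses was 0.25 ± 0.46 (adjusted p = 1), which was -0.15 with a floor of 100 units. The sources used here do not tell whether its probes fall inside the deletion, so this signal is no check of the knockout. Of 15 RA-induced genes 0 were called and 11 lay below 0 (median -0.24), with Meis1, a Hox cofactor, at -1.18 ± 0.38 (adjusted p = 0.424) and Meis2 at -0.97 ± 0.49 (adjusted p = 0.965). None was called of 12 genes of retinoid metabolism (median -0.03), of 11 retinoid receptors and cofactors (median 0.06) or of 20 Hox, Cdx and TALE genes (median 0.04). The RA-binding protein Crabp2 had -0.97 ± 0.35 (adjusted p = 0.561), and the RA receptor Rarb, at the floor in all controls, had -0.72 ± 0.30 (adjusted p = 0.77). With a floor of 100 units 4 of the 15 RA-induced genes, 1 of the 12 metabolism genes, 1 of the 11 receptors and cofactors and 3 of the 20 Hox, Cdx and TALE genes were called, all lower. Among them were Meis1 (-1.53, adjusted p = 0.000243), Meis2 (-0.90, adjusted p = 0.00632) and Rarb (-0.72, adjusted p = 0.0177). A p that misses the threshold does not show that the responses were equal, and the median standard error of a difference was 0.31.

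Pluripotency, proliferation and matrix genes gave 0 calls as well. The 26 pluripotency genes had a median of 0.19, with Prdm14 at -1.16 ± 0.47 (adjusted p = 0.73) and Tcl1 at 0.83 ± 0.31 (adjusted p = 0.626). The median was 0.11 over 26 proliferation genes, where the cyclin Ccnd2 had -1.40 ± 0.69 (adjusted p = 0.937). It was 0.08 over 16 basement membrane genes, with the collagen prolyl hydroxylase P4ha1 at 0.85 ± 0.27 (adjusted p = 0.424).

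The same 72 h arrays were also set against cells after 8 h of RA, in place of the controls. The 3 KO and 3 WT samples had 100 nM RA with LIF for 8 h. This difference uses no control array. For genes at the floor in controls and after 8 h of RA, it is the same value as from the controls by construction. Tagln, Cnn1 and Cyp1b1 are among these genes. This difference also shares the 72 h arrays, so it is no independent repeat. It called 42 genes (0.369%), 40 lower (0.351%) and 2 higher (0.0176%), of which 31 lower and 2 higher genes were also called from the controls. Tagln had -5.46 ± 0.34 (adjusted p = 9.38e-07), Acta2 -4.41 ± 0.65 (adjusted p = 0.0117), Tpm1 -2.18 ± 0.37 (adjusted p = 0.0188) and Lefty1 1.81 ± 0.30 (adjusted p = 0.0163). Gata6 (1.95 ± 0.53, adjusted p = 0.222), Eomes (-1.59 ± 0.41, adjusted p = 0.183) and Edn1 (-1.78 ± 0.48, adjusted p = 0.224) were not called from 8 h. Cyp26a1 had read 193, 216 and 193 units in KO, against 637, 1695 and 691 units in WT cells at 8 h of RA, and its difference from there to 72 h was 2.03 ± 0.46 (adjusted p = 0.0901). Over the first 8 h alone limma called 0 genes with a different response (0%), with 211 at an unadjusted p under 0.05, and Tagln read at most 47.2 units on all 6 arrays at 8 h.

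Genes of chromosomes 8 and 19 were shifted between these lines, with medians for KO against WT of -0.29 over 638 tested genes of chromosome 8 and 0.48 over 414 of chromosome 19 at 72 h. In controls those medians were -0.25 and 0.47, and in the difference of responses they were 0.0074 and 0.046, against 0.0041 over the other 10336 genes. Of the 638 tested genes of chromosome 8, 3 were called (Acta1, Nrp1 and Mt1), and of the 414 of chromosome 19, 2 were (Acta2 and Pcgf5). Over all genes tested 0.342% were called, so these counts are no result about either chromosome. Rhox6, Gpc3 and Bgn are the called genes of the X chromosome.

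The values next to the threshold are given as a description. Krt7, Gata6 and Eomes were the last inside it, with adjusted p of 0.0448, 0.0473 and 0.0497. Pramel7 (-2.21), Vopp1 (-1.59), Mlkl (-1.44) and Krt20 (-1.43) were the first outside, with adjusted p of 0.0504, 0.0556, 0.0557 and 0.0569. Where called genes had other probe sets that could be tested, 18 of 19 had the same sign and 6 passed the threshold.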

How the data were processed

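The authors deposited linear signal intensity per probe set and array, made with MAS5 per the submitters' processing notes. The version is not given in the sources used here. Signals were multiplied per array to bring the trimmed mean (2% off each end) to 500, floored at 50 and taken to log2, so log2 values are computed here from the deposited intensity. Probe sets (45101) were named from the platform annotation: 34958 had 1 symbol, 932 several and 9211 none, and 34754 matched RefSeq (GRCm38.p6) by Entrez number. The probe set with the highest mean stood for a gene (18194), and 11388 genes with at least 2 arrays at 100 units were tested.

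limma 3.58.1 in R 4.3.3 (lmFit, eBayes with trend) fitted 16 arrays of 6 groups with 10 residual degrees of freedom. The p-values are two-sided and adjusted by Benjamini-Hochberg over all genes tested, with a threshold of 0.05. Precision depends on how many arrays there are and on how far signal lies above background. The 2 arrays without LIF entered alternatives only. On simulated data 97% of 100 genes changed by a log2 difference of 2, and 97% of 100 changed by 3, were recovered, with 6 false calls among 11388 genes. The changed genes were drawn only from genes bright on average. Noise was normal with the spread of the fit, and the floor was not applied again. Recovery of genes near the floor, where many of the calls lie, was therefore not tested.

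Named were Cyp26a1, the 15 called genes with the largest difference in each direction, the 10 with the smallest p in a direction with fewer than 5 calls, and up to 6 called genes or the 2 largest differences of each of 29 lists. The other called genes were named after their values were seen. Members and lists were chosen with earlier results of these data known.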

Additional observations from a re-analysis of the deposited data

Results flagged for a closer look

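The difference between the genotypes' responses was tested directly, and every gene past the threshold is given here with that difference (log2, KO minus WT). The contractile genes had Tagln -5.46, Acta2 -3.81, Acta1 -3.26, Myl9 -3.01, Tpm1 -2.26 and Cnn1 -2.05. Membrane, secreted and matrix proteins had Nrp1 -2.87, Prss23 -2.84, Edn1 -2.57, Wls -2.51, Gpc3 -2.33, Pmp22 -2.11, Dlk1 -2.08, Cd44 -1.84, Bgn -1.73, Ntn1 -1.65 and Tmprss2 -1.64. Keratins had Krt18 -2.62 and Krt7 -1.75. Regulators had Rhox6 -2.44, Ets1 -2.23, Irs1 -2.23, Pdzrn3 -2.14, Eomes -2.04, Zfp503 -1.76 and Pcgf5 -1.10. The remaining genes called lower were Cyp1b1 -3.21, Anxa3 -2.20, Gbp2 -1.94, Gbp2b -1.77, Cstdc1 -1.70, P3h2 -1.56, Mt1 -1.53, H2-Eb1 -1.50, Dpysl3 -1.47 and Sh3tc2 -1.46. Gata6 2.63, Lefty1 1.56 and Olig3 1.55 were the genes called higher.

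No group here had more than 3 samples, so no sample was tested as an outlier within its group. On the arrays without LIF, none of the called genes or LIF-responsive genes tested reached 100 units and also exceeded the highest control of its genotype by 2 times.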

How the results depend on the processing

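The count from the controls (39) was 188 with a floor of 100 units and 5 with one of 25, 7 with log2 of the signal plus 32, 123 with no filter and 11 with a filter at 200 units. It was 19 after quantile normalization, 15 after median scaling, 9 in a fit of the 10 arrays alone and 83 without the trend. From 8 h of RA (42) the counts under the same settings were 197, 8, 9, 125, 14, 19, 15, 9 and 74. With every probe set tested by itself, 32 probe sets were called from the controls, 0 of them higher, and 43 from 8 h. The 32 covered 22 of the 39 genes, and Gata6, Lefty1 and Olig3 were not called. Leaving out 1 array gave 1 to 28 genes from the controls and 1 to 40 from 8 h. The control count was 11 without both replicate 1 controls, 69 with the controls without LIF pooled in, and 45 with their LIF labels exchanged. With the replicate number as a block it was 56, and 61 from 8 h. The block kept 35 of the 39 calls and lost Krt7, P3h2, H2-Eb1 and Sh3tc2. Of 13 pairs of same-numbered arrays, 10 had deviations correlated over 0.1 (lowest 0.03, median 0.15), against 1 of 24 pairs of unlike number (median -0.12). Deviations were taken from group means, so positive values in same-numbered pairs force negative values in the others. The pairs of unlike number are therefore no separate comparison. Since not every same-numbered pair passed 0.1, the numbers were not taken to pair the samples. Several labels hold no replicate number, and the numbers come partly from the order of the samples. Whether same-numbered samples shared a run was not tested. After median scaling the median of all genes was 0.07 from the controls and 0.13 from 8 h, against 0.0059 and 0.0106 as reported. Of the calls, 81.8% to 100% were lower from the controls and 77.8% to 100% from 8 h. For the called genes 493 gene-by-setting values stayed past the threshold, 466 did not and none changed sign. Genes at the floor in every group but WT at 72 h could not change sign under the same floor and scaling. Of other named genes, Cyp26a1 turned to -0.15 with a floor of 100 units and Dppa3 ran from -0.01 (without WT control replicate 2) to 1.34 when 1 array was left out. Uncalled genes named in the text passed the threshold in 24 gene-by-setting values. With a floor of 100 units these were Meis1, Meis2, Rarb, Msx1, Ndufa4l2, Sgk2, Suclg2 and Slc9a3r2. Sgk2, Suclg2, Slc9a3r2, Gsdmd, Islr, Aard and Dnmt3a passed in others. The causes were not tested.

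Precision is limited by 2 arrays in each 72 h group and by signal near background: 22 called genes had a group wholly at the floor.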

Other observations

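Further lists held no gene past the threshold. Of 16 cholesterol synthesis genes 14 lay below 0, with a median of -0.17 and the lanosterol demethylase Cyp51 at -0.66 ± 0.33 (limma adjusted p = 0.946). Of 17 genes of hypoxia and glycolysis 4 lay below 0 (median 0.26), with Ndufa4l2, a hypoxia-induced mitochondrial protein, at 1.13 ± 0.42 (adjusted p = 0.586, called with a floor of 100 units) and Ndrg1 at -0.99 ± 0.35 (adjusted p = 0.547). The 13 BMP and Id genes had a median of -0.37, with the homeobox gene Msx1 at -1.44 ± 0.49 (adjusted p = 0.515, called with a floor of 100 units) and the inhibitor of differentiation Id3 at -1.25 ± 0.49 (adjusted p = 0.666). Over 19 PDGF and FGF genes the median was 0.08, with the growth factor Pdgfc at -1.49 ± 0.61 (adjusted p = 0.746). The 12 lysosomal genes (median 0.06) included the protease Ctsl at 0.67 ± 0.19 (adjusted p = 0.304).

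Eomes was the only gene called of 8 primitive streak and mesoderm genes (median -0.29). No gene was called of 12 LIF and STAT3 response genes (median -0.02), 11 Wnt response genes (median -0.31), 7 DNA methylation genes (median 0.10), 12 germ cell genes (median 0.11), 13 immediate early genes (median -0.36) or the 3 tested feeder markers (median -0.51).

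Since few genes were called higher, the nearest uncalled ones are given as values. Sgk2, a kinase of the Sgk family, read 129 and 128 units in KO cells after 72 h of RA and 154, 149.7 and 211 units in KO controls, against 69.1 and 119.9 units in WT cells after 72 h and 414, 356 and 345 units in WT controls. Its difference was 1.62 ± 0.34 (adjusted p = 0.0636). Aard, an alanine- and arginine-rich protein gene, read 10015 and 10092 units in KO cells after 72 h of RA and 1654, 1510.2 and 1548 units in KO controls, against 8450.0 and 8285 units in WT cells after 72 h and 6440.2, 3608 and 2778 units in WT controls (1.62 ± 0.37, adjusted p = 0.115). Others were Suclg2, a citric acid cycle enzyme (0.71 ± 0.17), Gsdmd, the pore-forming gasdermin (1.46 ± 0.35), Commd3 (1.03 ± 0.26), Slc9a3r2 (1.08 ± 0.27) and Islr (1.30 ± 0.33). Other tested probe sets of Slc9a3r2 gave -0.04 to 0.70, another of Commd3 gave 0.51 and another of Suclg2 gave 0.83. KO controls lay below WT controls on every array for Sgk2, Aard, Suclg2, Gsdmd, Commd3 and Slc9a3r2.

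Dnmt3a, a DNA methyltransferase, read 3303, 808 and 814 units in KO controls, against 4030.5, 1121 and 1425 units in WT controls, in order of replicate number. Replicate 1, the array with low Socs3, was the highest in both genotypes.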
